A study of Mus musculus with 15 samples.

Results

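Complement and coagulation factors were followed as 52 genes, named by symbol and matched to the Ensembl row IDs of the liver count table. They are 52 of the 55450 gene IDs in that table, and all 52 passed the filter on low counts that left 15808 genes for testing. Of the 52, 42 were listed as made mainly by hepatocytes and 6 as made mainly by macrophages (C1qa, C1qb, C1qc, Cfp, C3ar1 and C5ar1). The remaining 4 (Cfd, Cd55, Cd59a and Tfpi) come from other or several cell types. The 15 livers were from C57BL/6 females of 3 groups of 5. Adult (A1 to A5) entered the study at 6 months of age and Old (O1 to O5) at 22 months, and daily gavage with corn oil as vehicle was given to both. PDX (P1 to P5), likewise 22 months old at entry, received protectin DX in corn oil at 30 ng per g of body weight. Protectin DX is a lipid mediator derived from docosahexaenoic acid. Livers were collected at the end of the study, when all mice were older than at entry. The treatment description gives 9 weeks of gavage and the series text gives 8. The sources used here describe no transgene or deletion in these mice. RNA came from crushed frozen liver tissue, so every cell type in the tissue and its blood could contribute.

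Complement is a cascade of plasma proteases that is started by C1q on bound antibody, by mannose-binding lectins on sugars or by spontaneous C3 turnover, and that ends in a membrane pore. Coagulation is a second protease cascade, which ends when thrombin cuts fibrinogen to fibrin, and it is held in check by anticoagulants and by plasmin. Hepatocytes secrete most of these proteins and raise several of them in the acute-phase response to interleukin-6, whereas the C1q chains and the receptors for the C3a and C5a fragments are made by macrophages and other myeloid cells.

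The mouse was the unit of replication, and the libraries held between 22424383 and 36070835 counted read pairs. The 52 genes took 5.00% to 5.71% of the pairs in the Adult livers, 5.49% to 11.8% in the Old livers and 6.07% to 8.68% in the PDX livers. The defining genes of liver tissue were abundant in all 15 libraries, the 11 hepatocyte markers summing to between 63425 and 228020 CPM (read pairs per 1000000, with library sizes scaled by TMM factors). A pair of Old livers stood apart. In O2 the 10 Kupffer cell markers summed to 3378 CPM, against 343 to 1686 in the other 14 livers, and the 11 neutrophil markers to 305 CPM, against 6.09 to 215. In O5 the hepatocyte markers reached their lowest sum, 63425 CPM, and O2 had the next lowest, 86533. That sum is weighted to Alb, with up to 4241143 read pairs in a liver, against at most 398133 for any other of the markers. The 42 hepatocyte-made genes instead had their highest sum in O5, 112851 CPM, and their lowest in O2, 39255. Differences of the 52 genes between Old and Adult that moved by over 1.5 times without these livers are therefore given both ways below. Mice were processed in batches that the sources used here do not assign to single animals, so that within-batch values could not be given.

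The 52 genes differed widely in abundance. On the scale of CPM per kilobase of the principal transcript, medians over the Adult livers ran from 2507 for C3, the central component of complement, and 2164 for Fga, down to 0.810 for C3ar1 and 0.354 for C5ar1, the receptors for C3a and C5a. The 6 highest genes were C3, the 3 fibrinogen chains (Fga, Fgg and Fgb), plasminogen (Plg, 1364) and high-molecular-weight kininogen (Kng1, 1290). The 3 C1q chains lay close together on this scale, at 57.7 for C1qa, 58.5 for C1qb and 48.3 for C1qc.

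Old was compared with Adult to ask what age changes, and PDX with Old to ask what treatment changes. Between Old and Adult, 2 of the 52 genes passed the threshold of 0.05 on the adjusted p (edgeR's quasi-likelihood test on all 15 mice, Benjamini-Hochberg adjustment), which was 1 higher and 1 lower. Across all genes tested, 6.78% passed, 4.71% as higher and 2.07% as lower. The gene that rose was C5ar1 and the gene that fell was Cd59a, which encodes a surface-anchored inhibitor of the membrane pore. Between PDX and Old, 0 of the 52 passed, as did 0 of the 15808 genes (0%), also by DESeq2 and by limma-voom with sample weights. At an unadjusted p under 0.05 there was 1 gene of the 52 and 834 of all genes. Between PDX and Adult, 0 of the 52 passed against 2.66% of all genes (1.76% as higher and 0.898% as lower). An unadjusted p under 0.05 was reached there by 19 of the 52 and by 3264 of the 15808 genes. The smallest adjusted p of the 52 was 0.0694, for C4bp. These comparisons share mice, Old standing in the first and the second and Adult in the first and the third.

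The count between PDX and Adult differed between fits with all, some or none of the Old livers. These fits also differed in the genes kept and in the normalization, and the part of the spread was not tested. When only the PDX and Adult mice were fitted, 27 of the 52 passed, 22 higher and 5 lower, in a fit in which 29.6% of all genes passed (16.1% as higher and 13.5% as lower). With all groups but without O2 and O5, 22 of the 52 passed, 19 higher and 3 lower, against 24.6% of all genes (14.4% and 10.2%). Between Old and Adult the same removal of O2 and O5 left 5 genes higher (Hc, Serpinf2, Cfi, Cfb and F11) and Cd59a lower, against 7.12% of all genes (4.85% as higher and 2.26% as lower). The fit of the Old and Adult groups alone called 0 of the 52 and 0.698% of all genes (0.552% and 0.146%). Other tools gave other counts. Between Old and Adult, DESeq2 called 10 of the 52 higher and 2 lower, against 11.1% and 4.90% of all genes, and limma-voom with sample weights called 10 higher and 1 lower, against 7.26% and 7.44%. For PDX against Adult, DESeq2 called 7 higher and 0 lower, against 5.12% and 3.63%, and limma-voom 22 higher and 3 lower, against 17.3% and 16.1%.

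Sorted by source, the 2 kinds of gene lay apart in the fitted differences from Adult on all mice, but not between PDX and Old. There the log2 fold changes ran from -0.35 to 0.01 for macrophage-made and from -0.79 to 0.52 for hepatocyte-made genes. Between Old and Adult without O2 and O5 the kinds also overlapped, with 0.50 for C1qa and 0.87 for Fga. The median log2 fold change between Old and Adult was 1.50 over the 6 macrophage-made genes, all 6 of which were fitted higher, and -0.01 over the 42 hepatocyte-made genes, of which 21 were fitted higher and 21 lower. Over all 15808 genes it was 0.07. Without O2 and O5 the median of the macrophage-made genes was 0.55 and that of the hepatocyte-made genes 0.20. For PDX against Adult the medians were 1.39 and 0.15, with -0.01 over all genes, and without O2 and O5 in the fit they were 1.41 and 0.17. Between PDX and Old they were -0.07 and 0.22, and without O2 and O5 they were 0.82 and -0.02. In unsorted liver tissue, fewer cells of a type and less RNA per cell cannot be told apart.

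**Figure D1:**
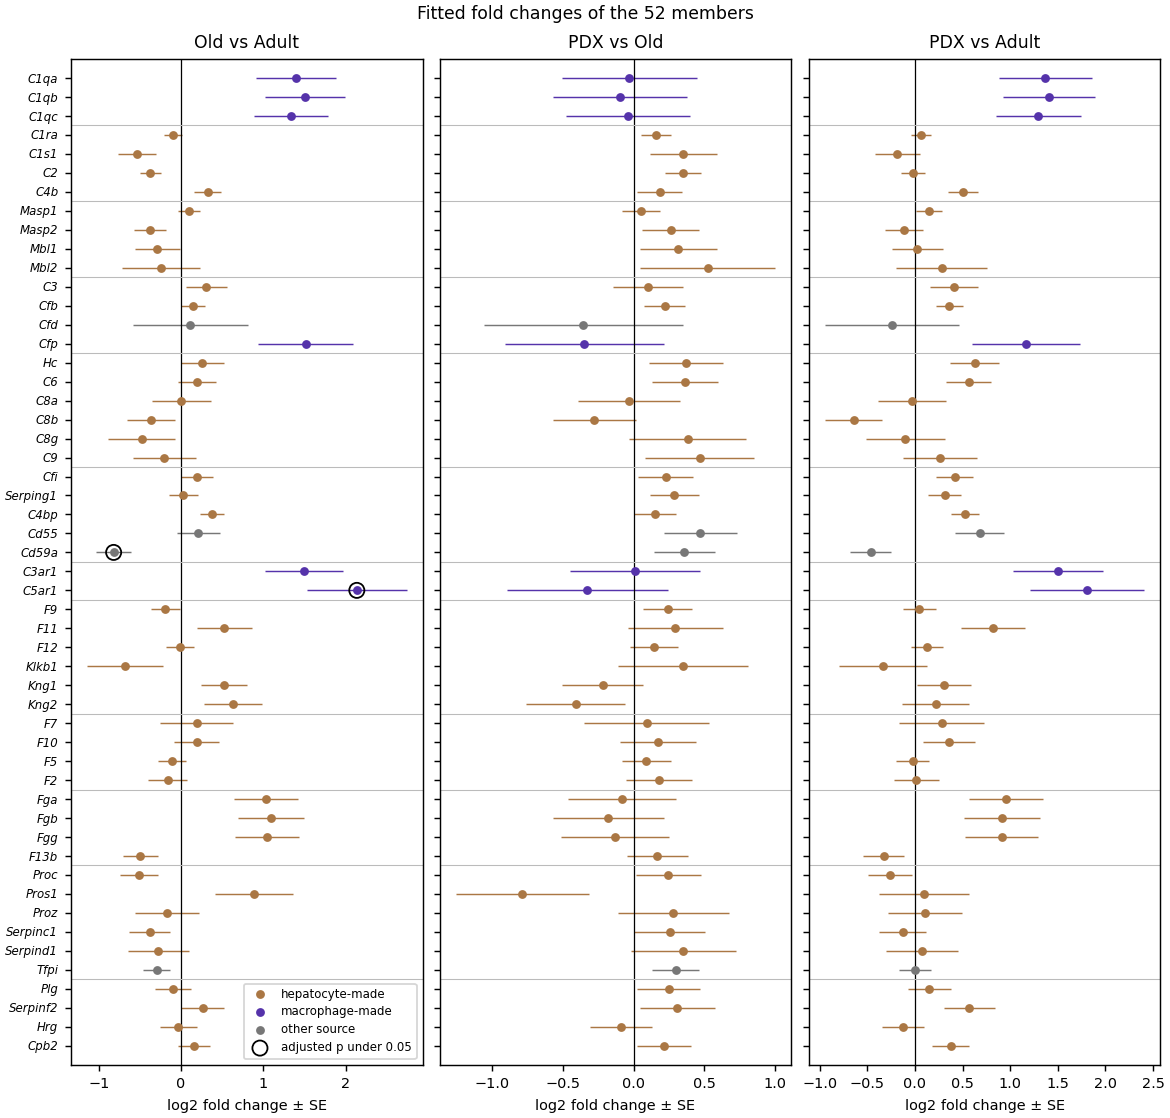
Fitted log2 fold change of each of the 52 genes (horizontal axis, with the SE as bars) in the 3 comparisons, in the order of their roles and coloured by the cell type that makes them. Only C5ar1 and Cd59a between Old and Adult are circled as past an adjusted p of 0.05, and the 6 macrophage-made genes lie to the right of 0 in the comparisons with Adult.

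Individual livers gave more detail than the group means. In O2, 34 of the 42 hepatocyte-made genes lay below the lowest Adult liver and 4 above the highest, while all 6 macrophage-made genes lay above. In O5, 28 of the 42 lay below the Adult range and 12 above it. Over all 15808 genes, 71.8% lay outside the Adult range in O2 and 78.5% in O5, so that being outside was common. The direction differed among the 52 genes within the same liver, however, and O5 held both the highest and the lowest values seen for many of them. Of the 42 hepatocyte-made genes in O5, 18 (42.9%) were more than 1 log2 unit from the Adult mean, against 35.3% of all genes. In O3, the Old liver nearest to Adult by this count, 0 of the 42 were.

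**Figure D2:**
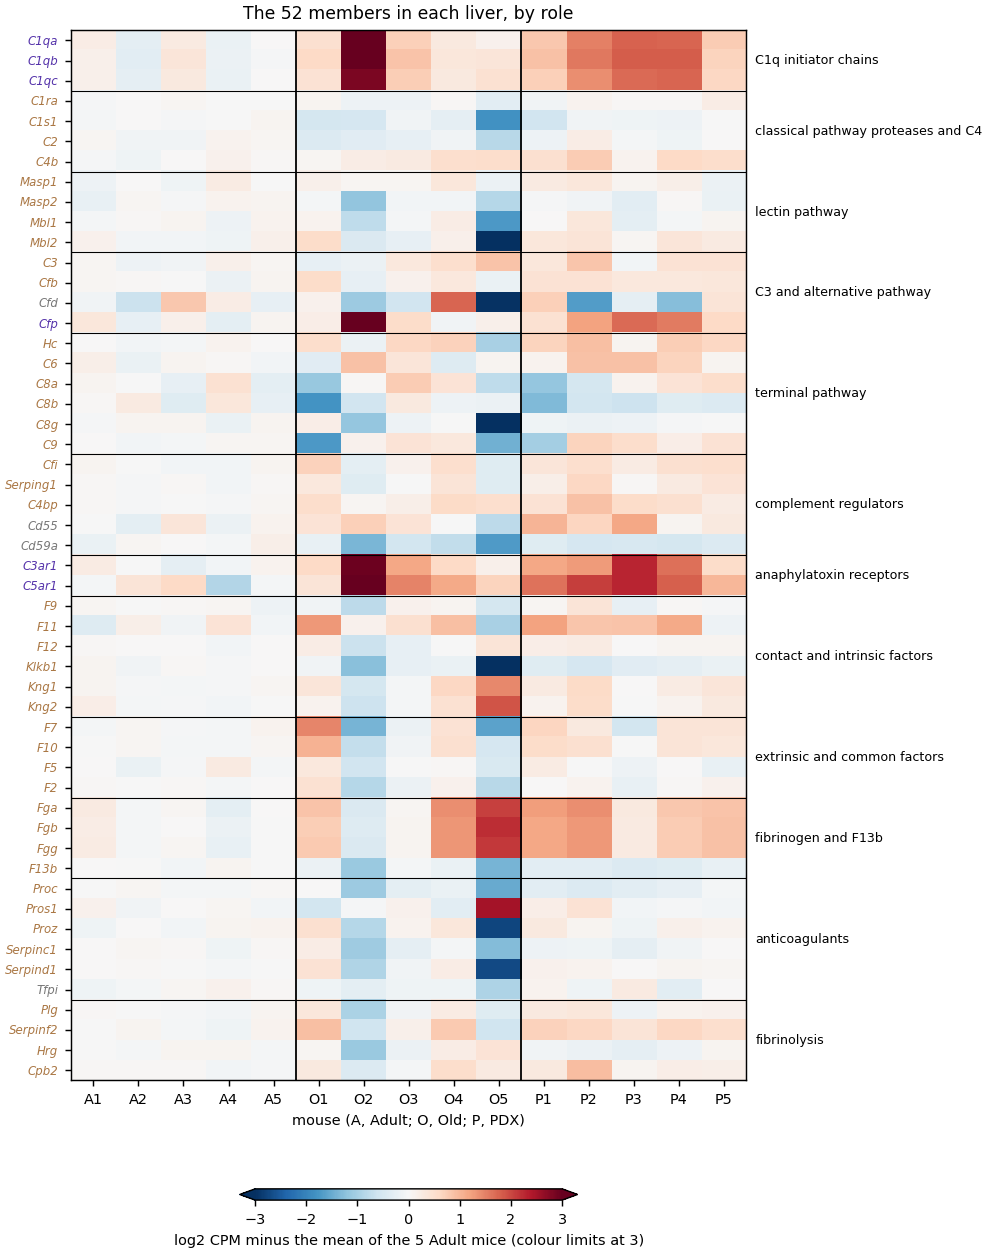
Difference of log2 CPM from the mean of the 5 Adult livers for the 52 genes (rows, by role, with names of macrophage-made genes in purple and hepatocyte-made genes in brown) in 15 livers (columns). O2 is dark red for the C1q chains, Cfp, C3ar1 and C5ar1, and O5 is red for fibrinogen, the kininogens and Pros1 and dark blue for Mbl2, Klkb1, C8g, Proz and Serpind1.

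Among the 5 Old livers the 52 genes also varied more. The median coefficient of variation of CPM over the 42 hepatocyte-made genes was 6.31% between Adult livers, 40.0% between Old livers and 14.2% between PDX livers, beside 14.4%, 36.6% and 15.8% over all tested genes. For all 52 genes it was larger in Old than in Adult, as it was for 89.8% of all tested genes. It was larger in Old than in PDX for 48, beside 88.8% of all tested genes. Without O2 and O5 the median over the hepatocyte-made genes was 16.7% between the remaining 3 Old livers, and 43 of the 52 genes still varied more there than in Adult, beside 65.6% of all tested genes.

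**Figure D3:**
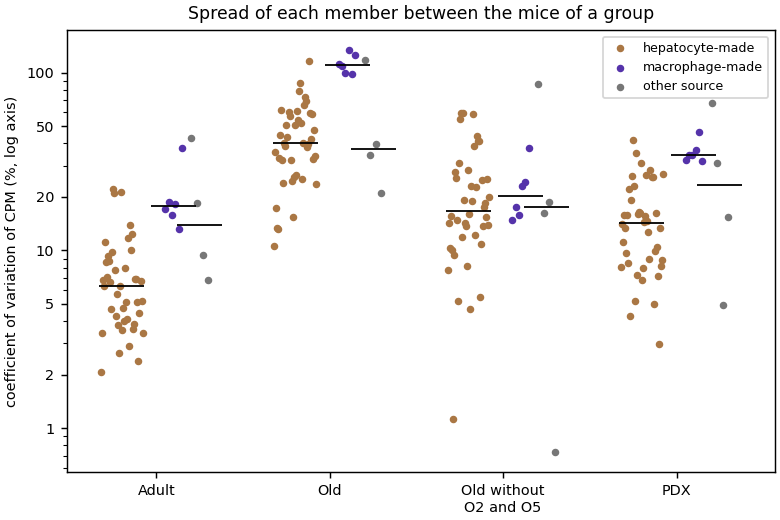
Coefficient of variation of CPM (%, log axis) of each of the 52 genes between the mice of a group, with the Old group also shown without O2 and O5, and with black bars at the median by source. The hepatocyte-made genes sit at a median of 6.31% in Adult, 40.0% in Old, 16.7% in Old without O2 and O5 and 14.2% in PDX.

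The C1q chains, which form the recognition molecule of the classical pathway, lie side by side on mouse chromosome 4 (GRCm38, GENCODE M21), C1qb at 136880129 to 136886187, C1qc at 136889804 to 136893065 and C1qa at 136895917 to 136898803, all on the minus strand. C1qa stood at 69.2, 48.5, 72.2, 52.1 and 60.0 CPM in A1 to A5, at 83.5, 476, 97.9, 73.0 and 65.1 in O1 to O5, and at 104, 171, 205, 199 and 101 in P1 to P5. All 5 PDX livers lay above all 5 Adult livers, and O2 lay far above every other liver. O2 had 7.88 times the Adult mean of C1qa, 8.38 times that of C1qb and 7.02 times that of C1qc. The fitted log2 difference between Old and Adult was 1.40 ± 0.49 (SE) for C1qa, 1.50 ± 0.49 for C1qb and 1.34 ± 0.45 for C1qc, with adjusted p-values (edgeR) of 0.0814, 0.0677 and 0.0735, none past the threshold. Without O2 they were 0.41 ± 0.22, 0.54 ± 0.24 and 0.49 ± 0.22 for C1qa, C1qb and C1qc (edgeR adjusted p 0.295, 0.195 and 0.215), and without O5 1.595 ± 0.47, 1.69 ± 0.48 and 1.49 ± 0.45, past the threshold (0.041, 0.0364 and 0.0432). For PDX against Adult these differences were 1.37 ± 0.49, 1.41 ± 0.48 and 1.30 ± 0.45 (adjusted p 0.131, 0.123 and 0.122). In the fit of PDX and Adult mice alone the 3 chains were higher by 1.38 ± 0.21, 1.42 ± 0.23 and 1.31 ± 0.22, with adjusted p-values of 0.000941, 0.00118 and 0.00141.

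The 3 chains kept nearly the same proportions in every liver. While C1qa spanned 9.81-fold over the 15 livers, the ratio of C1qb to C1qa ran from 1.02 to 1.29 and that of C1qc to C1qa from 0.854 to 1.21, both highest in O5. The sums of macrophage markers were also highest in O2. The 10 Kupffer cell markers summed to 498 to 728 CPM in Adult, to 343 to 988 in 4 Old livers and 3378 in O2, and to 816 to 1686 in PDX. The 12 general macrophage and monocyte markers summed to 190 to 270, to 318 to 456 and 1910 in O2, and to 414 to 971 CPM. Single Kupffer cell markers did not all move together, as 9 of the 10 were fitted higher than in Adult and 1 lower, in Old and in PDX. The lowest log2 fold change among them was -1.51 in Old and -1.60 in PDX. The summed C1q chains came to 1.75 to 2.25 times the CPM of Csf1r, the receptor for the macrophage growth factor, in Adult. This ratio was 2.14 to 3.17 in Old and 2.32 to 2.73 in PDX, the highest Adult and the lowest PDX ratio lying close together. The part of macrophage number in the level of C1q was not tested.

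**Figure D4:**
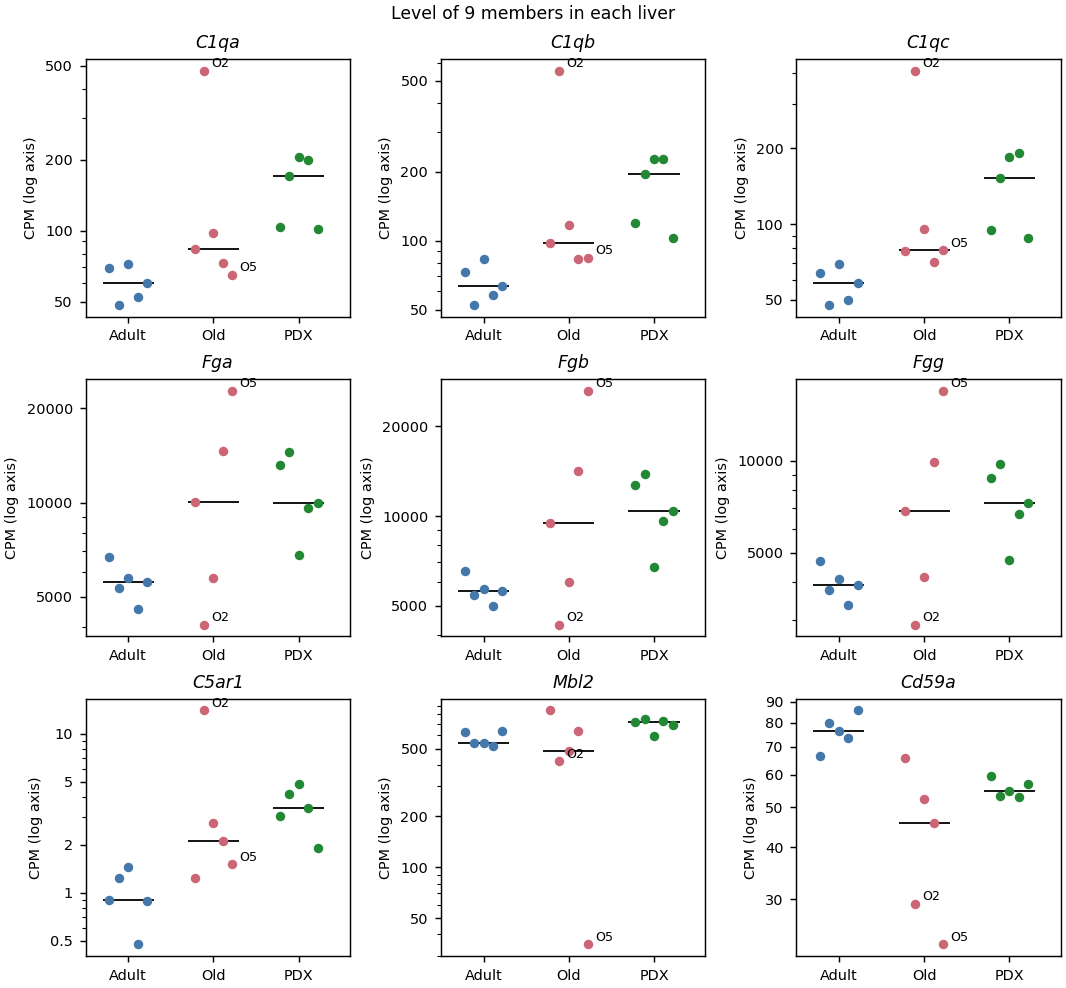
CPM (log axis) of 9 of the genes in each liver, by group, with a black bar at the group median and the Old livers O2 and O5 labelled. O2 is the highest point for the C1q chains and C5ar1, and O5 is the highest for the fibrinogen chains and the lowest for Mbl2 and Cd59a.

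C5ar1 encodes the receptor for C5a, a strong attractant of neutrophils and macrophages, and lies on chromosome 7 (16246743 to 16259540). It stood at 0.899, 1.23, 1.46, 0.475 and 0.889 CPM in the Adult livers (13 to 35 read pairs), at 1.23, 14.0, 2.75, 2.12 and 1.51 in the Old livers and at 3.04, 4.17, 4.79, 3.39 and 1.93 in the PDX livers. O1 and Adult overlapped, whereas all PDX livers lay above all Adult livers. C5ar1 rose between Adult and Old by 2.14 ± 0.60 on the log2 scale (adjusted p 0.0475, edgeR), but without O2 the difference was 0.96 ± 0.34 (adjusted p 0.119). It passed in 7 of the 23 other settings and leave-outs. C3ar1, the receptor for C3a, ranged from 2.92 to 4.16 CPM in Adult, from 3.93 to 7.94 in 4 Old livers with 27.2 in O2, and from 5.19 to 17.4 in PDX, its difference of 1.49 ± 0.47 between Old and Adult missing the threshold (adjusted p 0.0643). Without O2 and O5 the difference of C3ar1 was 0.82 ± 0.30 (adjusted p 0.112). Of the 11 neutrophil markers 9 rose between Adult and Old by edgeR, against 3 without O2 and O5 and 2 with the compared groups alone. Their sums were 6.09 to 11.5 CPM in Adult, 26.5 to 305 in Old and 57.6 to 215 in PDX, and their part in the receptor levels was not tested.

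The classical pathway's proteases were more even. C1ra, one of the proteases carried by C1q, ranged only from 162 to 233 CPM over all 15 livers. C1s1, the protease that it activates, ranged from 470 to 514 CPM in Adult and from 139 to 453 in Old, with no overlap, but its difference of -0.54 ± 0.24 missed the threshold (adjusted p 0.156) and was -0.28 ± 0.13 without O2 and O5. C2, which C1s cuts, stood at 63.7, 56.9, 57.1, 66.1 and 63.4 CPM in Adult, at 46.0, 48.2, 51.3, 56.6 and 34.6 in Old and at 54.8, 71.7, 58.6, 55.8 and 61.6 in PDX. The Old livers all lay below the Adult livers, with a log2 difference of -0.37 ± 0.13 (adjusted p 0.0761), or -0.25 ± 0.10 without O2 and O5. C2 had the smallest p of the 52 between PDX and Old, with a difference of 0.35 ± 0.13 (unadjusted p 0.0142, adjusted p 0.793). Exons of Gm20547 overlap those of C2 and Cfb on the same strand. C4b, the second component that C1s cuts, ran from 1426 to 1691 CPM in Adult, from 1608 to 2218 in Old and from 1676 to 2632 in PDX. Read pairs that align equally to C4b and its near copy C4a were not counted.

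No gene of the lectin pathway passed in any of the comparisons by edgeR, DESeq2 or limma-voom on all mice. Masp1, a protease bound to the mannose-binding lectins, ranged from 143 to 206 CPM over all livers, and Masp2, which starts the lectin pathway, ranged from 199 to 267 except for 110 in O2 and 136 in O5. The lectin Mbl2 stood at 625, 545, 543, 523 and 639 CPM in Adult, at 846, 423, 484, 641 and 35.0 in Old and at 720, 749, 599, 733 and 691 in PDX. Its level in O5 was 16.4 times below the Adult mean, from 972 read pairs. The related Mbl1 was 55.7 CPM in O5 and 108 to 231 elsewhere. The ratio of Mbl2 to Mbl1 was accordingly 0.629 in O5, against 2.72 to 4.26 in the other 14 livers. The fitted difference of Mbl2 between Old and Adult was -0.24 ± 0.48 (adjusted p 0.778), and without O2 and O5 it was 0.20 ± 0.15.

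C3, cut by every pathway, ranged from 11107 to 13752 CPM in Adult, from 10402 to 22381 in Old and from 11662 to 21932 in PDX. O5 held the highest value, 1.80 times the Adult mean, and O1 the lowest. Its difference between Old and Adult was 0.31 ± 0.25 (adjusted p 0.446). Cfb, the protease of the alternative pathway, ran from 117 to 139 CPM in Adult, from 110 to 194 in Old and from 163 to 177 in PDX, above every Adult liver. Cfp, or properdin, which stabilizes that pathway's convertase, was 35.3 to 54.5 CPM in Adult, 40.4 to 63.9 in 4 Old livers, 424 in O2 and 59.8 to 141 in PDX. Cfd, the protease also known as adipsin from its high level in fat, was scarce, at 0.108 to 4.56 CPM, or 3 to 123 read pairs. Of the 6 adipocyte markers, Adipoq, Plin1, Lep and Retn had at most 27 read pairs in any liver. The other two were Fabp4, at 7.003 to 30.2 CPM, and Cidec, at 18.6 CPM in O5 and 0.315 to 1.65 elsewhere, with differences of 0.80 ± 0.32 and 2.20 ± 0.91 between Old and Adult (adjusted p 0.119 and 0.133).

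The terminal pathway builds the membrane pore. Hc, which encodes C5, was 557 to 625 CPM in Adult, 298 to 937 in Old and 622 to 1088 in PDX, with a difference between Old and Adult of 0.26 ± 0.26 (adjusted p 0.551) that was 0.63 ± 0.14 without O2 and O5 (adjusted p 0.0187). C6, an early subunit of the pore, ran from 17.8 to 43.0 CPM over all livers. The 3 chains of C8 did not keep a common proportion. C8a stood at 227, 214, 183, 298 and 176 CPM in Adult, at 98.3, 220, 367, 287 and 126 in Old and at 96.9, 150, 231, 287 and 310 in PDX. C8b, which lies beside C8a on chromosome 4, was 101 to 165, 37.4 to 159 and 52.1 to 102 CPM in the same groups. C8g, a lipocalin encoded on chromosome 2, was 302 to 363 CPM in Adult, 33.5 in O5, 155 in O2, 312 to 394 in the other Old livers and 307 to 343 in PDX. The ratio of C8g to C8a therefore spanned 15.1-fold, from 0.266 in O5 to 4.01 in O1. C9, the subunit that closes the pore, was low in O1 (62.1 CPM), O5 (75.3) and P1 (102), against 195 to 326 elsewhere. O1 and P1 were also the lowest livers for C8a and C8b.

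**Figure D5:**
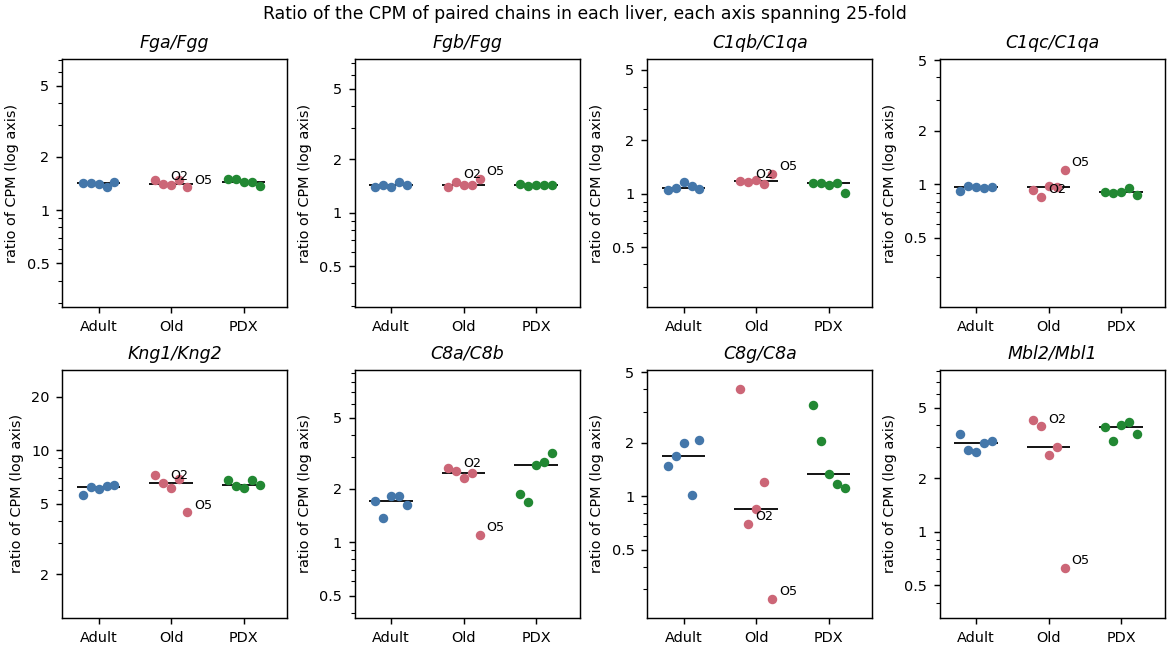
Ratio of CPM between 2 related genes in each liver (log axes that each span 25-fold), by group, with a black bar at the group median and O2 and O5 labelled. The fibrinogen ratios stay between 1.34 and 1.55 and the C1q ratios between 0.854 and 1.29, whereas C8g to C8a runs from 0.266 to 4.01 and Mbl2 to Mbl1 drops to 0.629 in O5.

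Of the complement regulators, Cd59a fell between Adult and Old. It stood at 66.4, 79.8, 76.5, 73.7 and 85.8 CPM in Adult, at 65.7, 29.2, 52.3, 45.8 and 23.3 in Old and at 59.4, 53.3, 54.8, 52.8 and 57.0 in PDX. Every Old and every PDX liver lay below every Adult liver, O1 and A1 being nearly equal, and the PDX livers spanned only 52.8 to 59.4. The difference between Old and Adult was -0.82 ± 0.22 (adjusted p 0.0371, edgeR) and -0.47 ± 0.12 without O2 and O5 (adjusted p 0.0283), and it passed in 10 of the 23 other settings and leave-outs. Without O2 alone it did not pass (-0.70 ± 0.21, adjusted p 0.0777). For PDX against Adult it was -0.46 ± 0.21 (adjusted p 0.237), and -0.45 ± 0.08 in the fit of those groups alone (adjusted p 0.0014). Read pairs that align equally to Cd59a and its copy Cd59b were not counted. C4bp, a fluid-phase inhibitor of C4b, ranged from 411 to 434 CPM in Adult, from 435 to 621 in Old and from 502 to 769 in PDX, without overlap of Adult with either group. Its difference was 0.38 ± 0.15 between Old and Adult (adjusted p 0.112). Cfi, the protease that inactivates C3b and C4b, was 855 to 972 CPM in Adult, 708 to 1473 in Old and 1084 to 1289 in PDX. Serping1, the C1 inhibitor, ran from 507 to 1007 CPM over all livers. Cd55, which dissociates convertases on cell surfaces, was 11.9 to 18.8 CPM in Adult, 8.39 to 23.7 in Old and 15.4 to 32.5 in PDX, and differed by 0.47 ± 0.26 between PDX and Old (adjusted p 0.793).

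In the contact and intrinsic group no gene passed by edgeR or DESeq2 on all mice, while limma-voom called Kng1 and F11 higher between Old and Adult (adjusted p 0.0315 and 0.0188) and F11 between PDX and Adult (adjusted p 0.0036). Klkb1, which encodes plasma prekallikrein, was 143 to 163 CPM in Adult, 7.96 in O5, 64.0 in O2, 130 to 143 in the other Old livers and 109 to 134 in PDX. Neither group overlapped Adult, although the highest Old liver (142.6 CPM) came close to the lowest Adult liver (143.1 CPM). O5 was 19.3 times below the Adult mean. Exons of Gm45753 overlap Klkb1 on the same strand. The kininogens, from which prekallikrein's active form releases bradykinin, lay the other way in that liver. Kng1 was 6482 CPM in O5 and 1664 to 3726 in the other livers, and Kng2 was 1455 CPM in O5 and 254 to 574 in the others. Their differences between Old and Adult were 0.52 ± 0.28 and 0.63 ± 0.35 (adjusted p 0.246 and 0.259), and without O5 they were 0.16 and 0.02. The kininogens resemble each other, and read pairs that align equally to both were not counted. The ratio of Kng1 to Kng2 stayed between 4.46 and 7.23. F11, the factor that thrombin and factor XII activate, was 45.1 to 78.8 CPM in Adult, 146 in O1 and 30.3 in O5, and 52.9 to 137 in PDX. F9 (122 to 272 CPM) and F12 (382 to 780 CPM) had their lowest values in O2.

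Of the 4 extrinsic and common factors, 0 passed in any comparison by edgeR or DESeq2 on all mice. Between PDX and Adult, limma-voom called 1 of the 4 higher, beside 17.3% of all genes. The fit of those groups alone also called 1 higher, beside 16.1% of all genes. F2, which encodes prothrombin, ran from 2485 to 2668 CPM in Adult, from 1432 in O2 and 1455 in O5 to 3605 in O1, and from 2242 to 2830 in PDX (Old against Adult -0.16 ± 0.23, adjusted p 0.683, and 0.17 ± 0.13 without O2 and O5). F7, the factor that tissue factor binds, varied most, from 62.7 CPM in O5 and 72.4 in O2 to 523 in O1, with 182 to 203 in Adult and 130 to 297 in PDX. F10, which activates prothrombin, followed the same order at the top, with 1448 CPM in O1 and 427 to 1036 elsewhere. F5, its cofactor, ran from 256 to 474 CPM. O1 was thus the highest of all 15 livers for F2, F5, F7, F10 and F11.

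The 3 fibrinogen genes were higher than in Adult in most of the Old and PDX livers, with no call by edgeR on all mice. They form a cluster on chromosome 3 (GRCm38, GENCODE M21), Fgg at 83007724 to 83015049 and Fga at 83026076 to 83033627 on the plus strand and Fgb at 83040141 to 83049863 on the minus strand. Fga stood at 6708, 5342, 5761, 4558 and 5599 CPM in Adult, at 10032, 4081, 5748, 14665 and 22819 in Old and at 13149, 14542, 6823, 9649 and 9992 in PDX. O2 was below and O3 within the Adult range, O1, O4 and O5 were above it, and all 5 PDX livers lay above it. O5 had 4.08 times the Adult mean of Fga, 4.65 times that of Fgb and 4.29 times that of Fgg. The differences between Old and Adult were 1.04 ± 0.39, 1.09 ± 0.40 and 1.04 ± 0.39 for Fga, Fgb and Fgg (edgeR adjusted p 0.102, 0.0932 and 0.0984). Without O5 they were 0.63 ± 0.33, 0.59 ± 0.30 and 0.59 ± 0.31 (adjusted p 0.206, 0.202 and 0.209) for the same genes, and without O2 1.26 ± 0.33, 1.31 ± 0.34 and 1.26 ± 0.33, past the threshold (0.0464, 0.0458 and 0.0456). On all mice the adjusted p-values for Fga, Fgb and Fgg were 0.0349, 0.0289 and 0.034 by DESeq2 and 0.00674, 0.00599 and 0.00619 by limma-voom, so that both called the 3 chains higher. Between PDX and Old the edgeR differences were -0.08 ± 0.38, -0.18 ± 0.39 and -0.13 ± 0.38. Between PDX and Adult they were 0.95 ± 0.39, 0.91 ± 0.40 and 0.91 ± 0.38, and the fit of those groups alone gave 0.96 ± 0.19, 0.92 ± 0.17 and 0.92 ± 0.18 with adjusted p-values of 0.00299, 0.00239 and 0.00268. The 3 chains were also called there by limma-voom on all mice, but not by DESeq2.

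Fibrinogen is assembled from equal numbers of its 3 chains. Across livers in which Fga spanned 5.59-fold, Fgb 6.09-fold and Fgg 5.85-fold, the ratio of Fga to Fgg stayed between 1.34 and 1.49 and that of Fgb to Fgg between 1.39 and 1.55. The 14 acute-phase genes, listed apart from the 52, summed to 11195 to 12130 CPM in Adult, 16516 to 62682 in Old and 23693 to 78722 in PDX. Of these, 8 of 14 rose between Adult and Old (7 without O2 and O5, 3 with the compared groups alone) and 10 of 14 between Adult and PDX, and their relation to fibrinogen was not tested. F13b, the carrier subunit of the factor that cross-links fibrin, lay the other way, at 268 to 297 CPM in Adult, 107 to 271 in Old and 212 to 242 in PDX, all PDX livers below all Adult livers (adjusted p 0.413 with all mice and 0.00434 in the fit of those groups alone).

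Promoter windows of the fibrinogen genes are printed because these genes kept a common ratio across the livers, and that of Mbl2 because O5, the liver with the most fibrinogen, had the least Mbl2. Each window runs from 250 bases before to 50 bases after the RefSeq transcript start in GRCm38.p6, at chr3:83025903-83026202 (plus strand) for Fga, chr3:83049814-83050113 (minus strand) for Fgb, chr3:83007474-83007773 (plus strand) for Fgg and chr19:30232678-30232977 (plus strand) for Mbl2. The table held windows for 42 of the 52 genes. Capitals mark CTGGGA or its reverse complement TCCCAG, the hexamer known from the interleukin-6 response of fibrinogen promoters, and GTTAAT or its reverse complement ATTAAC, an arm of the site of the hepatocyte factor HNF1. The motifs do not overlap in these windows.
Fga: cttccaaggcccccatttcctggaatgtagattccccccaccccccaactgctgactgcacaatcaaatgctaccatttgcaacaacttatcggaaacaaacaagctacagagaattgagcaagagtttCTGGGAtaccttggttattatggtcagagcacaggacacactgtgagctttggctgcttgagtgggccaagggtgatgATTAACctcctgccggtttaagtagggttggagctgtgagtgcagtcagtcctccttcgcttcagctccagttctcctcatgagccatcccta
Fgb: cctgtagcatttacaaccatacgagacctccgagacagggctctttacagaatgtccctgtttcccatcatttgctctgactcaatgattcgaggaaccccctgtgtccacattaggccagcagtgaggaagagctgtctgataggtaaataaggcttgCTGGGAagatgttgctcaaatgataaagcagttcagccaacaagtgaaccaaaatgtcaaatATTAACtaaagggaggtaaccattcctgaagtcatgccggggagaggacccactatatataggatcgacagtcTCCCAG
Fgg: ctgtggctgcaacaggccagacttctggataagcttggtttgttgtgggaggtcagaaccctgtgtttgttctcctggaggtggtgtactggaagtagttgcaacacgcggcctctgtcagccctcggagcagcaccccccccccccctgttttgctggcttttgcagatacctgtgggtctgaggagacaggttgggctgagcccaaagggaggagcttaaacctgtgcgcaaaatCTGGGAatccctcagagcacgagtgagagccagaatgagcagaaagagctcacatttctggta
Mbl2: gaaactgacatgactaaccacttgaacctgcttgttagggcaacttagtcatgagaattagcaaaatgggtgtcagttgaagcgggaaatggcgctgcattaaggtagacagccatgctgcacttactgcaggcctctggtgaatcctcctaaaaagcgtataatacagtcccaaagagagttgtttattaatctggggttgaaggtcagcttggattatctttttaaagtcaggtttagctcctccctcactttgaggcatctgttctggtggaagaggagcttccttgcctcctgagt

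The hexamer CTGGGA began 121 bases before the start in Fga, 91 before it in Fgb and 13 before it in Fgg, and a second match lay 45 bases after the start of Fgb on the other strand. GTTAAT was found on the other strand in Fga and Fgb, beginning 43 and 29 bases before the start, and in neither Fgg nor Mbl2, which also had no CTGGGA. Of all 32851 windows of this length in the table, 31.8% held CTGGGA on either strand and 7.10% held GTTAAT. Of the 45 windows of the 42 genes, 23 held the first and 12 the second. Such matches describe letters only.

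The anticoagulants parted in O5. Pros1, the cofactor of activated protein C that endothelial cells and other cells also make, was 373 CPM in O5 and 44.4 to 88.0 in the other 14 livers. Its difference between Old and Adult was 0.88 ± 0.47 (adjusted p 0.235), and -0.21 ± 0.15 without O2 and O5. Proz, the cofactor of an inhibitor of factor Xa, was 68.9 CPM in O5, 260 in O2 and 428 to 659 elsewhere. Serpind1, or heparin cofactor II, was 117 CPM in O5, 410 in O2 and 703 to 1027 elsewhere. Proc, which encodes protein C, was lowest in O5 (212 CPM) and O2 (282 CPM), against 452 to 632 in the other livers. Serpinc1, which encodes antithrombin, stood at 3053, 3135, 3092, 2750 and 3079 CPM in Adult, at 3538, 1443, 2509, 2888 and 1214 in Old and at 2731, 2748, 2496, 2805 and 3049 in PDX (Old against Adult -0.38 ± 0.25, adjusted p 0.338, and -0.01 ± 0.12 without O2 and O5). The ratio of F2 to Serpinc1, among several ratios formed, was 0.826 to 0.904 in Adult, 0.914 to 1.20 in Old and 0.898 to 1.02 in PDX. The highest Adult and the lowest Old ratio were nearly equal. Tfpi, the inhibitor of tissue factor that endothelial cells make, was 7.27 to 8.67 CPM in Adult, 4.14 in O5 and 6.43 to 9.64 elsewhere, and differed by 0.30 ± 0.17 between PDX and Old (adjusted p 0.793). The 8 endothelial markers also had their lowest sum in O5, 209.8 CPM against 364 to 501 in the others, and their part in the level of Tfpi was not tested.

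In fibrinolysis, Plg, the precursor of plasmin, ran from 3599 to 4050 CPM in Adult, from 1966 in O2 to 4839 in O1, and from 3402 to 4853 in PDX, with a difference of -0.10 ± 0.22 between Old and Adult (adjusted p 0.815), or 0.19 ± 0.13 without O2 and O5. Serpinf2, the inhibitor of plasmin, was 997 to 1166 CPM in Adult, 721 in O2, 716 in O5, 1218 to 2030 in the other Old livers and 1434 to 1774 in PDX. Its difference between PDX and Adult was 0.57 ± 0.26 (adjusted p 0.234), and 0.58 ± 0.09 in the fit of those groups alone (adjusted p 0.000776). Hrg, a plasma protein that binds plasminogen and heparin, was lowest in O2 (490 CPM) and highest in O5 (1429 CPM). Cpb2, which makes fibrin harder to dissolve, was 315 to 343 CPM in Adult, 250 to 477 in Old and 351 to 634 in PDX.

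Counted by separation of the groups, 6 of the 52 genes did not overlap between Old and Adult (8.15% of all tested genes did not). C1qc and C4bp lay above, beside 3.64% of all genes, and C1s1, C2, Cd59a and Klkb1 below, beside 4.51%. Between PDX and Old 0 of the 52 were separated, beside 0.342% of all genes. Between PDX and Adult 17 of the 52 were separated, beside 19.9% of all genes. The 14 above Adult were the 6 macrophage-made genes, the 3 fibrinogen chains and Cfb, Cfi, C4bp, Cpb2 and Serpinf2, and the 3 below were Cd59a, F13b and Klkb1, while all genes divided into 10.5% above and 9.38% below.

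Other genes of the pathways were read from lists of 29 complement and 30 coagulation genes, of which 25 and 23 could be tested. Between Old and Adult, 3 complement genes rose and 2 fell. The risers were Itgam, Itgax and Itgb2, the subunits of the C3-fragment receptors CR3 and CR4, with differences of 3.60 ± 0.73, 3.21 ± 0.76 and 2.02 ± 0.56 (adjusted p 0.017, 0.0278 and 0.0429). Their highest values were in O2, at 38.7, 51.9 and 212 CPM, and without O2 and O5 the differences of Itgam, Itgax and Itgb2 were 1.67 ± 0.39, 1.43 ± 0.26 and 0.81 ± 0.26 (adjusted p 0.0218, 0.00838 and 0.0776). For this list the counts higher and lower were then 2 and 4, and 0 and 0 with the compared groups alone. Cr2, the receptor for C3d on B cells, was called lower, with 0.287 to 0.562 CPM in Adult and at most 0.111 in Old (adjusted p 0.0121). No read pair was counted in O2, O3 and O5. Cr2 had at most 20 read pairs in any liver, and no Old liver was high enough to help it pass the low-count filter. Its call therefore lies near the floor and was partly set by that filter. Of the coagulation genes, 5 rose and 0 fell, against 2 and 0 without O2 and O5 and 1 and 0 with the compared groups alone. Fgl1, a fibrinogen-like protein that hepatocytes secrete, was 433 to 495 CPM in Adult, 746 to 2150 in Old and 1334 to 2352 in PDX, and rose by 1.70 ± 0.27 between Adult and Old (adjusted p 0.00652) and by 1.95 ± 0.28 between Adult and PDX (adjusted p 0.00182). Plaur, the urokinase receptor (2.65 ± 0.57), F13a1, the catalytic subunit of factor XIII (2.34 ± 0.66), and Vwf, the platelet-binding von Willebrand factor (0.68 ± 0.19), also rose. Without O2 and O5 the differences of Plaur, F13a1 and Vwf were 1.13 ± 0.34, 0.98 ± 0.56 and 0.55 ± 0.19, none past the threshold (adjusted p 0.0607, 0.307 and 0.1004). In PDX against Adult the risers were C4a (0.88 ± 0.21, adjusted p 0.0375), Fgl1 and Serpina10, the inhibitor to which protein Z binds (1.14 ± 0.27, adjusted p 0.0378), and 0 fell. Between PDX and Old 0 genes of either list passed.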

How the data were processed

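Liver RNA of 15 mice was sequenced as paired ends. The authors aligned reads with STAR (2.6.0c) to mm10 and counted uniquely aligned proper pairs per Ensembl gene, on the same strand, with featureCounts (Subread 1.6.2). The deposited values were raw counts, with no normalization. A second deposited table, of variance-stabilized values, was not used. Symbols and coordinates were taken from GENCODE M21, which named 55190 of 55450 gene IDs, and promoter windows from RefSeq.

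Genes were kept by filterByExpr (minimum count 10, minimum total 15), leaving 15808. Library sizes were scaled by TMM, and the quasi-likelihood test of edgeR (4.0.16, R 4.3.3) was fitted to all 3 groups. Differences are fitted log2 fold changes ± SE, and p-values are two-sided with Benjamini-Hochberg adjustment over all genes tested, at 0.05. For PDX against Old the study's looser threshold of 0.25 would also have called 0 of the 52. Per-gene CPM values use the TMM-scaled library sizes. Steps were tested on simulated data, and tables and plots were made in Python (3.11.15). The alternatives were other size factors and low-count filters, DESeq2 (1.42.0), limma (3.58.1) voom with sample weights, the compared groups alone, the mouse number as a block, each mouse left out, and O2 and O5 left out.

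The 52 genes, the lists of other pathway, acute-phase and cell marker genes, and the motifs were chosen with earlier results of these data known. Values per mouse were given for genes past the threshold between Old or PDX and Adult, the 3 of smallest p between PDX and Old, the C1q, C8 and fibrinogen chains, the kininogen and mannose-binding lectin pairs, and C3, F2, Plg and Serpinc1. At most 15 other pathway genes were named by smallest p, and 2 genes counted there are not reported here. Genes given beyond these were chosen after their values were seen. The sources used here do not assign the batches to single mice.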

Additional observations from a re-analysis of the deposited data

Results flagged for a closer look

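Among 66 groups of 5 livers (22 of the 52 genes in 3 groups), 8 had 1 liver set apart. This means that its gap in log2 CPM to the nearest other liver was large. Divided by the range of the group in log2 CPM, that gap was above Dixon's critical value of 0.71. The levels below are printed as plain CPM, on which the ratio was not computed. Chance alone sets apart about 1 group in 20. The groups share the same livers, and the C1q chains moved together, so that the 8 are not separate events to hold against that rate. Of the 8, 5 were in Old. O2 was high for the C1q chains, with 476 CPM of C1qa against 65.1 to 97.9 in the other Old livers, 553 of C1qb against 82.9 to 118, and 406 of C1qc against 70.6 to 95.7. O5 was low for Mbl2, with 35.0 CPM against 423 to 846, and for Tfpi, with 4.14 against 6.51 to 7.34. In PDX, P1 was low for C8b, with 52.1 CPM against 84.8 to 102. In Adult, A1 was high for Kng2, with 450.4 CPM against 372 to 391, and A4 was low for Serpinc1, with 2750.2 CPM against 3053 to 3135.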

How the results depend on the processing

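Other size factors and a stricter filter of 1 CPM in 5 mice left every count of called genes as reported. Between Old and Adult, where 1 of the 52 was called higher and 1 lower, the counts were 0 and 0 with no low-count filter and with the compared groups alone, 10 and 2 by DESeq2, 10 and 1 by limma-voom, and 5 and 1 without O2 and O5. Leaving out 1 mouse at a time gave 0 to 5 higher and 0 to 2 lower. The 5 came without O5, where 1388 of 16027 genes were called higher. The 2 came without O4, where 398 of 16042 genes were called lower. C5ar1 was called in 7 of 23 alternatives (edgeR, DESeq2 or limma adjusted p 0.00418 to 0.136) and Cd59a in 10 of 23 (0.00162 to 0.139). Leaving out O2, any single Adult liver, P1, P2, P3 or P4 ended both calls, and leaving out P5 ended that of C5ar1 but not that of Cd59a. Between PDX and Adult, where 0 were called, the counts higher and lower were 7 and 0 by DESeq2, 22 and 3 by limma-voom, 22 and 5 with the compared groups alone, and 19 and 3 without O2 and O5. Leaving out 1 mouse gave 0 to 8 higher (8 without O2, 5 without O5 and 0 for each of the rest) and 0 lower. Over all genes, 1240 of 15978 were called higher and 526 lower without O2. Without O5 these were 857 of 16027 higher and 887 lower. Between PDX and Old, 0 of the 52 were called under each alternative run.

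The median Old-to-Adult difference of the macrophage-made genes was 0.52 to 1.69 with 1 mouse left out, the lowest without O2, and 0.55 without O2 and O5. For Old against Adult, 6 small log2 differences changed sign. By limma-voom they were 0.0713 for Mbl1, 0.1071 for Mbl2, 0.108 for F2 and 0.1691 for Plg, and without O2 and O5 0.1075, 0.2041, 0.1716 and 0.1864, with 0.0292 for C8g. With 1 mouse left out, the ranges were -0.2635 (without O3) to 0.2055 (without O1) for C8a, -0.5275 (without O1) to 0.0576 (without O5) for Mbl2 and -0.2102 (without O1) to 0.0669 (without O2) for Plg. The cause of these changes was not tested. Of 375 values of single genes with 1 mouse left out, 334 kept direction and call, 21 lost the call, 13 gained one and 7 changed sign.

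Whether the mouse number pairs the livers was not settled by 5 pairs per comparison. The mean correlation of same-numbered pairs was -0.168 for Old and Adult, 0.092 for PDX and Old and 0.031 for PDX and Adult. For the other pairs these means were 0.0435, -0.0225 and -0.0078. Deviations of same-numbered Old and Adult mice correlated at -0.215 to -0.110, and the correlation was over 0.1 in 0 of 5 pairs, against 3 of 5 for PDX and Old and 1 of 5 for PDX and Adult. With this number as a replicate block, the counts between Old and Adult were 0 and 0, and the log2 difference of C8a was -0.134.

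Depth limits Cfd and C5ar1 most, with 3 to 123 and 13 to 480 read pairs per liver.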

Other observations

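The liver-enriched transcription factors, which drive many hepatocyte genes, were read from a list of 11. Foxa3 stood at 21.9 to 43.6 CPM in Adult, 41.2 to 87.3 in Old and 61.9 to 75.6 in PDX, and rose by 0.80 ± 0.21 between Adult and Old (edgeR adjusted p 0.0368) and by 1.06 ± 0.21 between Adult and PDX (adjusted p 0.0156). Foxa1 fell by 1.12 ± 0.21 between Adult and PDX, from 12.2 to 18.2 CPM to 5.09 to 7.91 (edgeR adjusted p 0.012). Between PDX and Adult, 1 of the 11 rose and 1 fell by edgeR, against 2 and 4 by limma-voom.

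Of the 6 platelet and megakaryocyte markers, 1 rose between Adult and Old, Pf4, a chemokine of platelet granules. It stood at 0.458 to 0.638 CPM in Adult and 0.742 to 5.33 in 4 of the Old livers, with 71.1 in O2, and its difference was 4.93 ± 1.18 (edgeR adjusted p 0.0289) and 1.28 ± 0.56 without O2 and O5 (adjusted p 0.174). Of the 6 B and T cell markers, 2 rose between Adult and Old, the B cell genes Ms4a1 (3.11 ± 0.77, edgeR adjusted p 0.031) and Cd79a (2.56 ± 0.71, adjusted p 0.0437). Without O2 and O5 these were 2.95 ± 0.70 (adjusted p 0.0239) and 2.19 ± 0.65 (adjusted p 0.0583). Between PDX and Adult, 0 of both marker lists passed in the fit of all mice. At an unadjusted p under 0.05 these were 2 platelet and 3 B and T cell markers, and with limma-voom 3 and 4 were called higher.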
